A study of Homo sapiens with 12 samples.

Results

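Complement components and regulators were followed in RT4 cells as 9 genes named by symbol: C1R, C1S, C3, CFB, CFI, SERPING1, CD46, CD55 and CD59. They were found by Ensembl identifier in both count tables, as 9 of 61860 identifiers in the table of the overexpression experiment and 9 of 62700 in the table of the resistance experiment. RT4 is an established human bladder cancer line, and its RNA was sequenced in 12 libraries, 3 in each of 4 groups. In the overexpression experiment, RT4 cells grown in McCoy's 5A medium with serum carried either an empty vector, called vector here, or a plasmid for ITGB4, the integrin beta chain of hemidesmosomes, called plasmid here. In the resistance experiment, RT4 cells labelled wild type and grown in MEM with serum were either parental and treated with PBS, or the cisplatin-resistant RT4R cells treated with cisplatin. Each experiment was compared with its own controls. The resistant and parental libraries differ in both line and cisplatin treatment, so these cannot be told apart. A change with resistance means both together here.

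The labels describe the overexpression as both transfection and infection, and whether it was transient or stable, and whether a culture came from 1 clone, is not given in the sources used here. The dose and duration of cisplatin are likewise not given in the sources used here. The group label of replicate 2 names ITGB5 and that of replicate 3 names ITGB6, in vector and plasmid alike, while every title names ITGB4. The parental columns are headed with a control name that no parental title holds, so their assignment is an inference from sharing a table with the resistant columns, and the letters a, b and c are used for these 3 libraries. No source says whether replicates are separate cultures, so the p-values speak of variation among these libraries alone, and that variation may be technical.

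Complement is a cascade of plasma and tissue proteins that marks surfaces for removal and can open pores in membranes. In the classical pathway the proteases C1r and C1s are held in the C1 complex, where C1r activates C1s, and C1s cuts C4 and C2. The convertase formed then cuts C3, the central protein on which all pathways meet. Factor B, encoded by CFB, supplies the protease of the alternative pathway convertase, which amplifies C3 cleavage. Host cells hold the cascade back with the secreted C1 inhibitor (SERPING1), which blocks C1r and C1s, with the protease factor I (CFI), which cuts C3b and C4b, and with the membrane proteins CD46, a cofactor of factor I, CD55, which speeds the decay of convertases, and CD59, which blocks the pore. The liver makes most of the complement in plasma, while epithelial cells make components of their own, whose genes respond to cytokines such as interferons and interleukins.

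Promoter sequences from RefSeq (GRCh38.p14) were matched for 6 of the 9 members, in 11 windows of 250 bases upstream of a start site. C3, C1S and SERPING1 had no matched sequence, so their promoters were not searched. Each was searched on both strands for 4 words of cytokine signalling: the STAT word GAS (TTCNNNGAA), the interferon word ISRE (GAAA, any 2 bases and GAAA again), the NF-kB word, and the C/EBP word (TTGCNNAA). Among 35116 promoter windows of the same length, 6.57% held the GAS word, 3.02% the ISRE word, 9.96% the NF-kB word and 9.05% the C/EBP word. CFB is shown because it had the largest change of any component in the plasmid libraries, and its window (6 windows held a match in all) held 3 of the 4 words, none overlapping another. The CFB window overlaps an annotated untranslated region and lies within the gene span given for CFB below. Each stretch below is printed 5′ to 3′ on the strand of the gene with the matched word in capitals, at chr6:31945945-31945974, chr6:31945973-31946002 and chr6:31945993-31946021, where positions are counted from the start site. The ISRE word, read on the other strand, lay at -140 to -131, the NF-kB word at -112 to -103 and the GAS word at -92 to -84.
CFB ISRE: acttctgcagTTTCTGTTTCcttgactggc
CFB NF-kB: gcagctcagcGGGGCCCTCCcgcttggatg
CFB GAS: cgcttggatgTTCCGGGAAagtgatgtgg

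A window is printed whole only where it overlaps no annotated untranslated region, which left windows of C1R and CD46 alone. C1R rose with CFB in the plasmid libraries, and CD46 fell, as did CD55 and CD59. The C1R window lies on the minus strand at chr12:7091894-7092143, before the inner of its 2 RefSeq starts, and holds a C/EBP word at -167 to -160 and a GAS word at -86 to -78, both in capitals. The window before the outer C1R start held a C/EBP word at -106 to -99. The CD46 window lies on the plus strand at chr1:207751804-207752053 and held none of the 4 words, so it has no capitals. CD59 had 4 windows, of which 2 that overlap held 1 GAS word, 1 held 2 C/EBP words and 1 held none, and the single windows of CD55 and CFI held none. A match of letters is a description of the sequence only, and binding was not measured.
C1R: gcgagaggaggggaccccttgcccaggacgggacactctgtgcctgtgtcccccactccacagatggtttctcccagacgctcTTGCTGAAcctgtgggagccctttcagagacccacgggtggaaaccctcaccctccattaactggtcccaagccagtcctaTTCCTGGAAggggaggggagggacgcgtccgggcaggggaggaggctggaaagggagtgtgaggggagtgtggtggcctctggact
CD46: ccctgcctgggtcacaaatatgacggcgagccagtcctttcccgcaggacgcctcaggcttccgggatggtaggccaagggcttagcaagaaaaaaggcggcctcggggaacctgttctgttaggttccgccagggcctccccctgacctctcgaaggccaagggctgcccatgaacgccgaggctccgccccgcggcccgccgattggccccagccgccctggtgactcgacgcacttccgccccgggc

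The libraries held 22701466 to 33352045 counts in the overexpression experiment and 31824582 to 38199946 in the resistance experiment. Levels are given as CPM, counts divided by library sizes that were scaled by the trimmed mean of M-values (TMM). Changes come from edgeR's quasi-likelihood test, with p-values adjusted by the Benjamini-Hochberg method across every tested gene, and a gene with an adjusted p under 0.05 is called higher or lower. The value after ± beside a log2 fold change is an approximate standard error, the absolute change over the root of the F statistic. ITGB4 itself stood at 858, 879 and 871 CPM in vector libraries 1, 2 and 3 and at 1485, 1379 and 1416 CPM in the plasmid libraries, 1.64-fold higher. ITGB4 was also higher in the resistant libraries, at 848, 831 and 832 CPM against 602, 598 and 600 CPM in the parental ones. Of 10 urothelial and epithelial markers 9 were measured well enough to test in either experiment, with keratins KRT8, KRT18 and KRT19 abundant and the uroplakin UPK1A at or under 0.405 CPM in every group mean. The summed level of these 10 markers was 2708 to 2833 CPM in the vector libraries and 4210 to 4524 CPM in the plasmid libraries, and 5293 to 5361 CPM in the parental and 5578 to 6528 CPM in the resistant libraries. With the plasmid 6 were called higher and 3 lower (EPCAM, UPK2 and UPK3A), beside 36.5% higher and 35.7% lower over all genes. In the resistant libraries 4 were called higher and 3 lower, beside 26.8% and 27.7%.

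Markers of cells that also make complement were low. The 4 hepatocyte markers summed to at most 0.105 CPM in any library, with TTR at 0 in all 12, and the 6 leukocyte markers summed to at most 1.09 CPM. The 4 endothelial markers summed to at most 2.51 CPM, most of it VWF, with KDR at 0 throughout. The 6 fibroblast markers summed to 48.1 to 52.3 CPM in the vector, 24.43 to 26.02 CPM in the plasmid, 11.54 to 12.02 CPM in the parental and 4.43 to 5.73 CPM in the resistant libraries, and came almost wholly from the collagens COL3A1 and COL1A1, while COL1A2, DCN, LUM and PDGFRB stood at or under 0.116 CPM in every group mean. The 2 collagens did not move together with the plasmid, where COL3A1 was called lower (45.9 to 18.2 CPM) and COL1A1 higher (4.05 to 6.89 CPM). In the resistance experiment 2 fibroblast markers were tested, and 1 was called higher and 1 lower. The part of these shifts in the complement results was not tested. In bulk RNA, fewer cells of a type and less RNA per cell cannot be told apart.

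In the overexpression experiment all 9 members passed the filter on low counts, and 5 were called higher with the plasmid (C1R, C1S, C3, CFB and SERPING1), 3 were called lower (CD46, CD55 and CD59), and CFI was not called. Over all 16950 genes tested, 72.2% were called, 36.5% higher and 35.7% lower, so a call by itself was common in this comparison. A change shown to exceed 1.5-fold was rarer, at 22.5% of all genes, and 5 members had one: C1R, C1S, CFB, SERPING1 and CD55. The groups' libraries did not overlap for 8 of the 9 members, against 74.5% of all genes. The median log2 fold change of the 9 was 0.41, against 0.0017 over all genes. This median is the value of C3, in a range from -0.70 for CD55 to 3.52 for SERPING1. It also counts CFB, which passed the filter through its counts in the plasmid group.

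In the resistance experiment 8 members passed the filter, CFB being too low, and 4 were called lower in the resistant libraries (C1R, C1S, C3 and SERPING1), 2 were called higher (CFI and CD55), and CD46 and CD59 were not called. Over all 16875 genes tested, 54.5% were called, 26.8% higher and 27.7% lower. A change shown to exceed 1.5-fold was found in 12.5% of all genes and in 3 members: C1R, C1S and C3. The libraries did not overlap for 6 of the 8 tested members, against 60.8% of all genes. Their median log2 fold change was -0.23, against 0.0181 over all genes. The plot of log2 fold changes shows the components to the right of 0 with the plasmid and, where tested, to the left of 0 in the resistant cells.

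**Figure D1:**
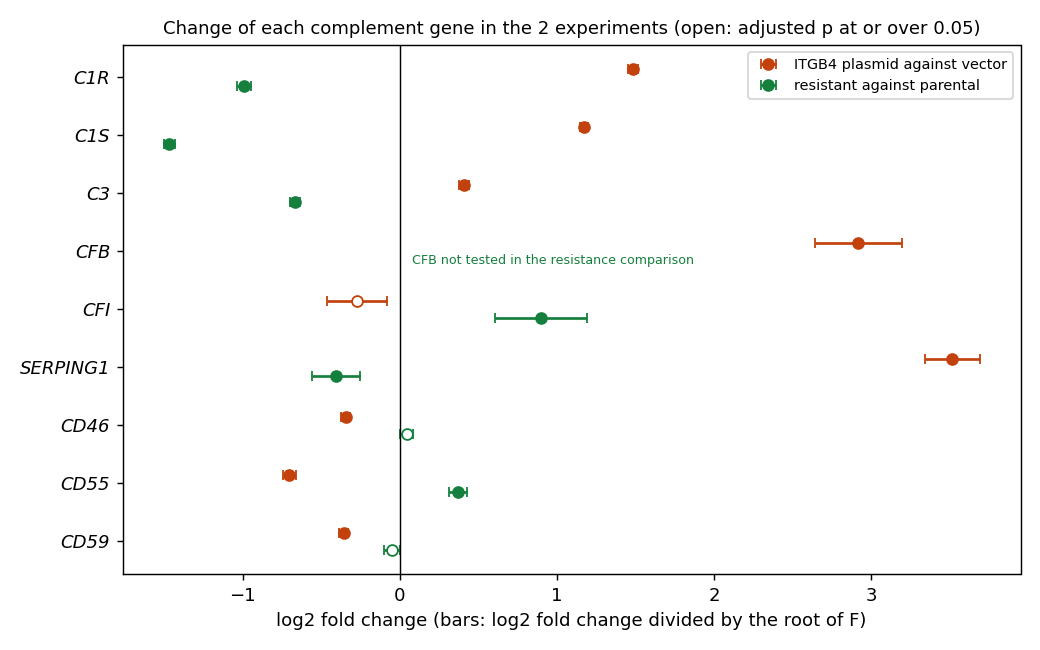
Horizontal axis, log2 fold change of each member with its approximate standard error; orange, plasmid against vector; green, resistant against parental; open points, adjusted p at or over 0.05. C1S lies at 1.17 in the first comparison and at -1.47 in the second, and CFB was not tested in the second.

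C1R and C1S, the paired proteases that start the classical pathway, moved together in both experiments. C1R (ENSG00000159403, chromosome 12, 7080199 to 7092607, minus strand) stood at 145, 148 and 144 CPM in vector libraries 1, 2 and 3 and at 428, 392 and 405 CPM in the plasmid libraries. Every plasmid library lay far above every vector library, 2.80-fold higher on average (log2 fold change 1.48 ± 0.032, adjusted p = 1.88e-16). C1S (ENSG00000182326, chromosome 12, 6988259 to 7071032, plus strand) stood at 139, 136 and 133 CPM with the vector and at 312, 307 and 301 CPM with the plasmid, again without overlap and 2.25-fold higher (log2 fold change 1.17 ± 0.028, adjusted p = 5.82e-16). The plasmid libraries were close to one another for both genes.

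Both proteases fell in the resistant cells. C1R stood at 521, 523 and 518 CPM in parental libraries a, b and c and at 278, 263 and 245 CPM in resistant libraries 1, 2 and 3. The drop was 1.99-fold (log2 fold change -0.99 ± 0.044, adjusted p = 3.96e-12), and no resistant library came near a parental one. C1S stood at 624, 618 and 631 CPM in the parental libraries and at 220, 232 and 226 CPM in the resistant libraries. This was 2.76-fold lower (log2 fold change -1.47 ± 0.037, adjusted p = 4.03e-15).

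The pair did not move in exact proportion. Per kilobase of exon, the level of C1R over that of C1S was 1.18 ± 0.027 (SD, n = 3) in the vector and 1.46 ± 0.054 in the plasmid libraries, and 0.917 ± 0.014 in the parental and 1.27 ± 0.10 in the resistant libraries. The ratio was therefore higher in the treated group of each experiment, where C1R rose more than C1S with the plasmid and fell less than C1S in the resistant cells. In each experiment the 3 treated libraries lay above the 3 controls, with a two-sided exact permutation p of 0.1, the smallest that 3 against 3 allows. Exons of C1R share 11.4% of their bases with C1RL, a neighbouring related protease gene on the same strand, and those of C1S share 3.54% with EMG1, and reads there cannot be assigned by position alone.

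**Figure D2:**
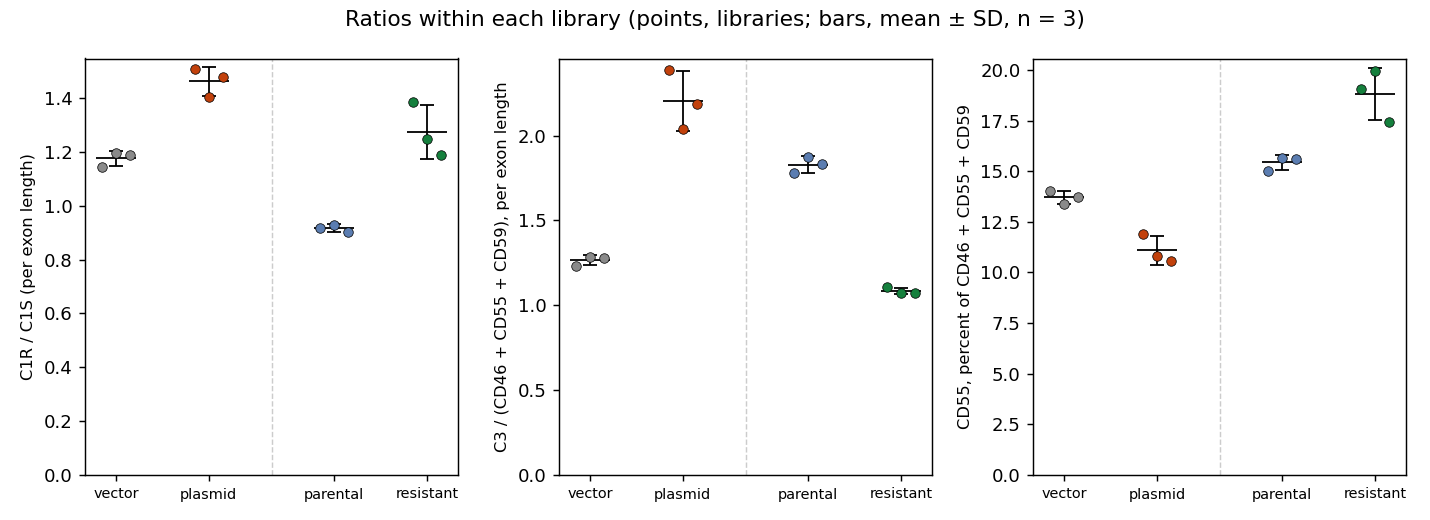
Points are libraries and bars the mean ± SD (n = 3); left, C1R over C1S; middle, C3 over the sum of CD46, CD55 and CD59, both per exon length; right, CD55 as a percent of that sum. All 3 ratios separate the groups within each experiment, and the middle one goes up with the plasmid (1.26 to 2.20) and down in the resistant libraries (1.83 to 1.08).

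C3 (ENSG00000125730, chromosome 19, 6677704 to 6730562, minus strand) had the highest CPM of the members in all 4 groups. It stood at 1017, 1039 and 1032 CPM in the vector libraries and at 1441, 1303 and 1357 CPM in the plasmid libraries. The rise was 1.33-fold (log2 fold change 0.41 ± 0.030, adjusted p = 1.86e-09), without overlap but not shown to exceed 1.5-fold. Among the cisplatin groups C3 stood at 812, 833 and 806 CPM in the parental and at 513, 511 and 519 CPM in the resistant libraries. This was 1.59-fold lower (log2 fold change -0.67 ± 0.034, adjusted p = 2.63e-11). No annotated gene overlaps its exons.

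CFB (ENSG00000243649, chromosome 6, 31945650 to 31952084, plus strand), the gene of factor B whose promoter words are printed above, was scarce in the controls. It had 4, 7 and 6 counts in the vector libraries, or 0.152, 0.244 and 0.178 CPM, and 27, 42 and 47 counts in the plasmid libraries, or 1.21 to 1.69 CPM. Every plasmid library was above every vector library, 7.56-fold on average (log2 fold change 2.92 ± 0.28, adjusted p = 5.61e-08). The ratio of the summed counts was 7.73, with an exact binomial 95% interval of 4.62 to 13.7 that covers counting error only. CFB passed the filter through its counts in the plasmid group.

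With cisplatin resistance CFB had 5, 3 and 3 counts in the parental libraries and 3, 0 and 2 in the resistant libraries. It was too low to test, and the count of 0 in resistant library 2 allows up to 0.0788 CPM (3 counts). The summed counts of 11 and 5 give a ratio of 0.432 with a 95% interval of 0.118 to 1.35, so no difference was detectable at this depth. Of the exon bases of CFB, 45.5% are shared with other annotated genes, 2249 bases of them with a same-strand locus (ENSG00000244255), listed at 0 in all 12 libraries, and 23 bases with C2. The counts of CFB are therefore uncertain where read assignment was ambiguous.

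**Figure D3:**
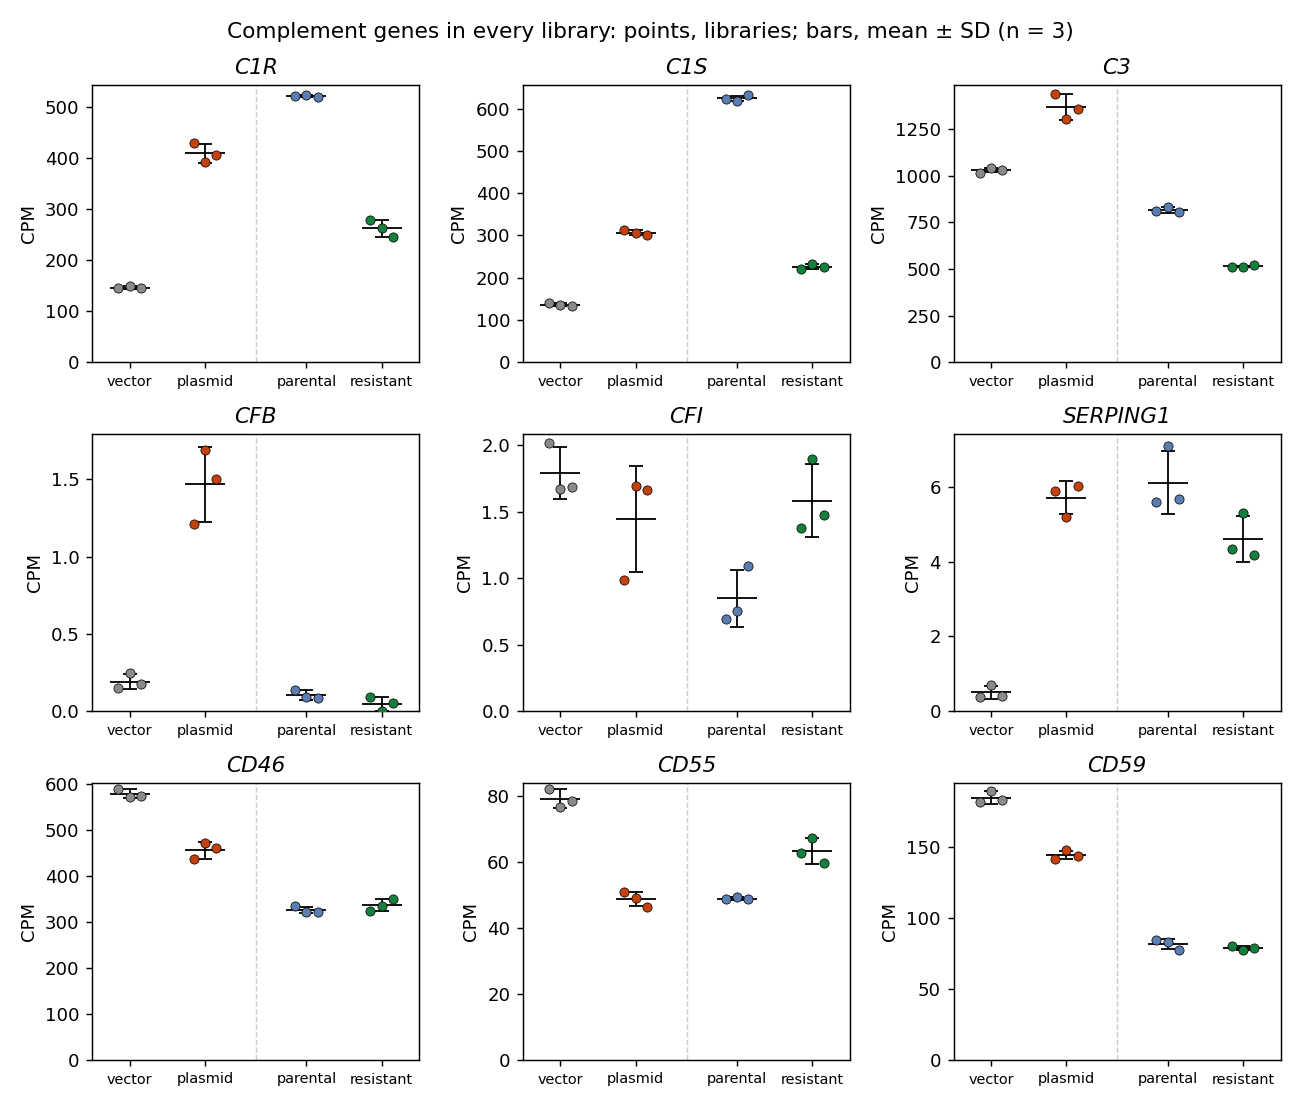
CPM of each member in every library (points) with the group mean ± SD (n = 3), on linear axes from 0; the dashed line parts the experiments, whose tables were counted separately. C1R, C1S, C3, CFB and SERPING1 are higher with the plasmid, while CD46, CD55 and CD59 are lower.

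SERPING1 (ENSG00000149131, chromosome 11, 57597387 to 57614853, plus strand), whose product inhibits C1r and C1s, had the largest rise of the members. It had 10, 20 and 14 counts in the vector libraries, or 0.380, 0.696 and 0.414 CPM, and 131, 129 and 189 counts in the plasmid libraries, or 5.88, 5.20 and 6.03 CPM. The groups lay far apart, 11.4-fold (log2 fold change 3.52 ± 0.18, adjusted p = 1.27e-11), and the ratio of summed counts was 11.6 with a 95% interval of 8.47 to 16.1. In the other experiment it stood at 5.59, 7.08 and 5.67 CPM in the parental and at 4.33, 5.31 and 4.17 CPM in the resistant libraries. It was called lower there (log2 fold change -0.41 ± 0.15, adjusted p = 0.0320), though resistant library 2 came close to the lowest parental library. This call was lost without parental library b (adjusted p = 0.164), without resistant library 1 (0.0886) or without resistant library 3 (0.112), and with library sizes alone or upper-quartile factors. Adjusted p ran from 0.0197 to 0.187 over 14 alternatives, of which 9 kept the call.

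CFI (ENSG00000205403, chromosome 4, 109740694 to 109802179, minus strand), the gene of factor I, stood at 2.02, 1.67 and 1.69 CPM in the vector libraries and at 0.987, 1.69 and 1.66 CPM in the plasmid libraries. The groups overlapped, with plasmid library 1 alone clearly lower, and no change was called (log2 fold change -0.28 ± 0.19, adjusted p = 0.207). In the resistance experiment it stood at 0.696, 0.753 and 1.09 CPM in the parental and at 1.38, 1.89 and 1.48 CPM in the resistant libraries. CFI was called 1.86-fold higher (log2 fold change 0.90 ± 0.29, adjusted p = 0.0156). The call was lost without parental library a (adjusted p = 0.0641), parental library b (0.0550) or resistant library 2 (0.0794), in a range of 0.00372 to 0.0794 over 14 alternatives. Exons of CFI share 32.0% of their bases with a same-strand locus (ENSG00000285330) listed at 0 in all 12 libraries.

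The 3 membrane regulators all fell with the plasmid. CD46 (ENSG00000117335, chromosome 1, 207752057 to 207795513, plus strand) stood at 590, 573 and 575 CPM in the vector libraries and at 437, 472 and 460 CPM in the plasmid libraries. CD55 (ENSG00000196352, chromosome 1, 207321376 to 207386804, plus strand) stood at 82.4, 76.9 and 78.6 CPM with the vector and at 51.0, 49.1 and 46.5 CPM with the plasmid. CD59 (ENSG00000085063, chromosome 11, 33703010 to 33736491, minus strand) stood at 182, 190 and 183 CPM with the vector and at 142, 147 and 144 CPM with the plasmid. For each of them every plasmid library lay below every vector library, in a comparison where 74.5% of all genes had no overlap. CD55 fell the most of the 3, 1.63-fold (log2 fold change -0.70 ± 0.040, adjusted p = 7.02e-11). CD46 was 1.27-fold lower (log2 fold change -0.34 ± 0.028, adjusted p = 1.06e-08) and CD59 1.28-fold lower (-0.36 ± 0.029, adjusted p = 7.54e-09), neither shown to exceed 1.5-fold.

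With resistance, only CD55 of the 3 was called. CD55 stood at 48.7, 49.4 and 48.7 CPM in the parental and at 62.7, 67.5 and 59.7 CPM in the resistant libraries, 1.29-fold higher and without overlap (log2 fold change 0.37 ± 0.057, adjusted p = 3.08e-05). CD46 stood at 335, 323 and 323 CPM in the parental and at 325, 335 and 351 CPM in the resistant libraries, which overlapped (log2 fold change 0.04 ± 0.040, adjusted p = 0.383). With library sizes alone CD46 was called higher (0.21, adjusted p = 0.000313), as it was with upper-quartile factors (0.15, adjusted p = 0.00458), in a range of 0.000313 to 0.739 over 14 alternatives. CD59 stood at 84.4, 83.0 and 77.5 CPM in the parental and at 80.5, 77.1 and 78.6 CPM in the resistant libraries, also overlapping (log2 fold change -0.05 ± 0.050, adjusted p = 0.407), and its sign turned with those same scalings (0.11 and 0.05, not called). Exons of CD59 share 6.07% of their bases with a same-strand locus that had at most 7 counts in any library.

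Summed per kilobase of exon, the membrane regulators stood at 97.8 ± 1.27 CPM (SD, n = 3) in the vector, 74.6 ± 2.16 in the plasmid, 53.7 ± 1.07 in the parental and 57.0 ± 1.18 in the resistant libraries. CD46 made up most of that sum, from 67.8% to 70.2% of it in the group means. CD55 made up 13.7% ± 0.321 in the vector and 11.1% ± 0.721 in the plasmid libraries, and 15.4% ± 0.351 in the parental and 18.8% ± 1.28 in the resistant libraries. C3 over the summed regulators was 1.26 ± 0.030 in the vector and 2.20 ± 0.18 in the plasmid libraries, and 1.83 ± 0.048 in the parental and 1.08 ± 0.020 in the resistant libraries. The sizes of these sums, shares and ratios depend on the length used. Per kilobase of the longest coding transcript, vector means were 196 CPM for C3 and 172, 27.4 and 24.2 CPM for CD46, CD55 and CD59. By that length C3 stood below the summed regulators in the vector libraries. Of the 5 ratios and sums compared in each experiment, the groups separated for all in both, except for the share of CD46 in the resistance experiment (exact permutation p = 0.2), with a two-sided exact permutation p of 0.1, the smallest possible, for the rest, and none of these 10 comparisons passes a threshold of 0.05, adjusted or not.

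Between the experiments, the difference of the log2 fold changes was tested in 1 fit of all 12 libraries, in which the change with the plasmid minus the change with resistance was estimated for 18516 genes. All 9 members were called, 5 with a positive and 4 with a negative difference, against 61.8% of all genes, of which 30.2% were positive and 31.6% negative. CFB is among the 9 though it was too low to test for resistance, and it entered this fit through its counts in the plasmid group. The difference was positive for the 3 abundant components, at 2.61 ± 0.045 for C1S (adjusted p = 1.49e-20), 2.45 ± 0.059 for C1R (3.01e-18) and 1.05 ± 0.046 for C3 (5.48e-14). It was negative for the membrane regulators, at -1.10 ± 0.071 for CD55 (2.94e-11), -0.41 ± 0.049 for CD46 (3.81e-07) and -0.33 ± 0.054 for CD59 (2.34e-05). Medium, treatment and table differ between the experiments along with the comparison, so these cannot be told apart.

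Among the members, levels were ordered by CPM per kilobase of merged exons. In the vector libraries the order was C3 (124), CD46 (66.5), C1R (24.8), C1S (21.1), CD59 (17.8), CD55 (13.4), CFI (0.367), SERPING1 (0.138) and CFB (0.0382), with no neighbours overlapping. With the plasmid, C1R (69.4) passed CD46 (52.4), C1S (47.4) came close to it, and SERPING1 (1.58) passed CFI (0.297), which overlapped CFB (0.294). In the parental libraries C3 (98.2) and C1S (96.6) overlapped at the top, before C1R (88.5), CD46 (37.5), CD55 (8.28), CD59 (7.88), SERPING1 (1.70), CFI (0.174) and CFB (0.0209). In the resistant libraries the order was C3 (61.8), C1R (44.5), CD46 (38.7), C1S (34.9), CD55 (10.7), CD59 (7.60), SERPING1 (1.28), CFI (0.324) and CFB (0.00944), and no neighbours overlapped.

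The order depended on the length used. With the length of the longest coding transcript in place of merged exons, CD55 passed CD59 in the vector libraries, C1S and C1R passed C3 in the parental libraries, and CD46 (99.9), C1R (98.5) and C3 (97.7) overlapped at the top in the resistant libraries. The vector and parental libraries are both controls of RT4 cells, but their tables were counted separately and their media differ, so their levels are set side by side without a test. Mean C1S was 136 CPM in the vector and 624 CPM in the parental libraries, and mean C1R was 146 and 521 CPM. Mean SERPING1 was 0.497 and 6.11 CPM. CD46 was higher in the vector libraries, at 579 against 327 CPM, and so was CD59, at 185 against 81.6 CPM.

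**Figure D4:**
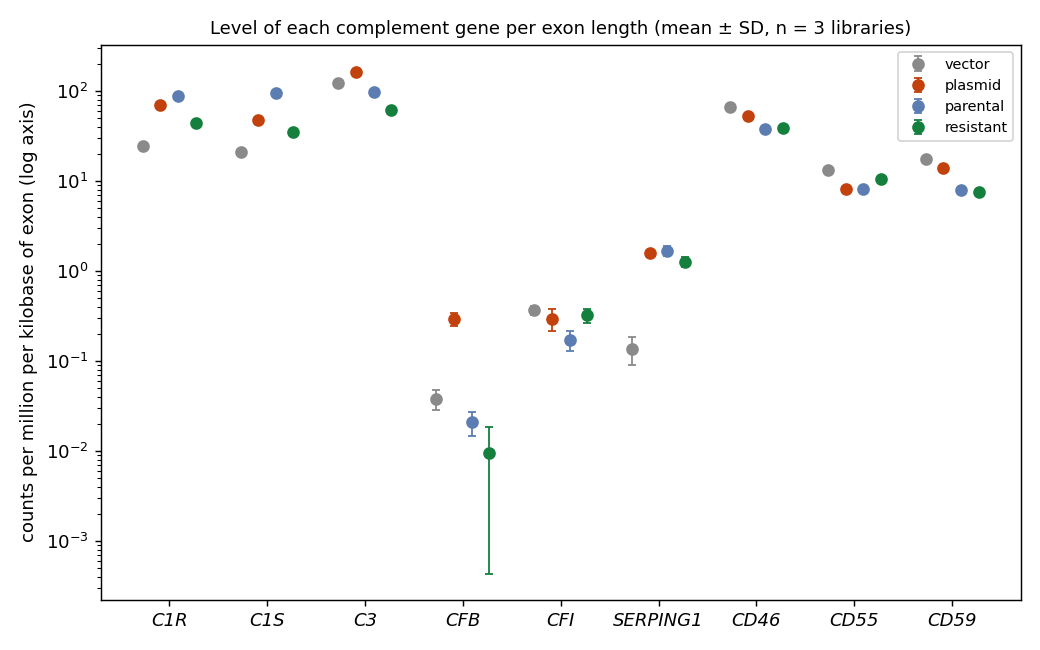
Mean ± SD (n = 3 libraries) of CPM per kilobase of merged exons, on a log axis, for each member in the 4 groups. C3, C1R, C1S and CD46 stand above 20 in every group, while CFB, CFI and SERPING1 stay under 2.

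Of 113 other genes of complement, its anchoring and its induction, grouped in 8 lists, few complement components were expressed. Of 16 classical and lectin components, 2 were high enough to test in each experiment: C1RL and MASP2, a lectin pathway protease. C1QA, C1QB and MBL2, recognition subunits of the classical and lectin pathways, had 0 counts in all 12 libraries. C1QC, another C1q chain, had 1 count over the vector and 2 over the resistant libraries, and C2 stood at or under 0.0215 CPM. C4A and C4B stood at or under 0.121 CPM, and as near-identical copies their reads can be lost or split. C1RL was called higher with the plasmid (88.0 to 138 CPM, log2 fold change 0.64 ± 0.031, adjusted p = 7.31e-12) and lower in the resistant libraries (155 to 114 CPM, -0.44 ± 0.043, adjusted p = 1.22e-07), the same directions as C1R, with which it shares exon bases. MASP2 was not called in either. Neither of the 2 alternative pathway genes, CFD and CFP, was high enough to test.

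Of 7 terminal components 3 were tested in each experiment, where 72.2% and 54.5% of all genes were called. C5, cut by the convertases to start the pore, was called higher in both, from 2.95 to 6.61 CPM with the plasmid (log2 fold change 1.17 ± 0.11, adjusted p = 3.92e-08) and from 13.8 to 42.9 CPM in the resistant libraries (1.64 ± 0.076, adjusted p = 7.99e-12). Its direction in the resistant cells was thus opposite to that of C3. C8G was called lower with the plasmid, with 79 counts over the vector and 26 over the plasmid libraries, and not in the resistance experiment. In the overexpression experiment C8G passed the filter through its counts in the vector group. With a minimum mean of 1 CPM, 0 terminal components were called lower with the plasmid. C9 was not called in either experiment.

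Of 19 other regulators 4 were tested. In each experiment 1 was called higher and 2 lower, beside 72.2% and 54.5% called over all genes. THBD, thrombomodulin, was called lower in both, from 133 to 56.0 CPM (log2 fold change -1.25 ± 0.031, adjusted p = 1.16e-15) and from 268 to 205 CPM (-0.39 ± 0.041, adjusted p = 4.19e-07). CLU, clusterin, which binds the terminal complex, fell from 184 to 116 CPM with the plasmid (-0.67 ± 0.034, adjusted p = 1.57e-11) and rose from 56.7 to 108 CPM in the resistant libraries (0.93 ± 0.061, adjusted p = 9.31e-10). SUSD4 was called higher with the plasmid, from 1.46 to 2.14 CPM (0.56 ± 0.17, adjusted p = 0.00660).

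Of 8 receptors 3 were tested in each experiment, with 1 called higher and 2 lower in both, beside 72.2% and 54.5% called over all genes. C5AR1, the receptor of the C5 fragment C5a, fell from 6.91 to 1.61 CPM with the plasmid (log2 fold change -2.08 ± 0.14, adjusted p = 4.69e-10) and rose from 0.565 to 3.41 CPM in the resistant libraries (2.59 ± 0.27, adjusted p = 3.14e-07). ITGAM, the alpha chain of the receptor for cleaved C3, was called lower in both, at -0.65 ± 0.056 (adjusted p = 1.84e-08) and -0.53 ± 0.085 (adjusted p = 4.35e-05). Its partner chain ITGB2 was too low to test. The receptor called higher with the plasmid was ITGAX, another alpha chain, with 4 counts over the vector and 43 over the plasmid libraries, a ratio of 12.2 with a 95% interval of 4.43 to 46.7 for counting error (adjusted p = 2.38e-05). C3AR1, the receptor of the C3 fragment C3a, was called lower in the resistant libraries, with 72 counts over the parental and 10 over the resistant libraries, all 10 in resistant library 3, a ratio of 0.132 with an interval of 0.0608 to 0.257 (adjusted p = 0.00463). Each of ITGAX and C3AR1 passed the filter through the group where it was high.

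CD55 and CD59 are held in the membrane by a glycosylphosphatidylinositol (GPI) anchor. Of 25 genes of its synthesis 23 were tested, and with the plasmid 9 were called higher and 8 lower, a share near the 72.2% called over all genes, with a median of 0.0039 and no change shown to exceed 1.5-fold. PIGN, a transferase of the pathway, fell from 59.9 to 39.3 CPM (log2 fold change -0.61 ± 0.039, adjusted p = 3.91e-10), PIGX and PIGK were also called lower, at -0.51 and -0.48, and PGAP1, which remodels the anchor, was called higher at 0.53. In the resistant libraries 5 were called higher and 7 lower, a share near the 54.5% called over all genes, with a median of -0.03. PGAP1 fell there from 94.4 to 50.7 CPM (-0.90 ± 0.057, adjusted p = 5.24e-10) and PIGA, part of the enzyme of the first step, from 75.6 to 42.2 CPM (-0.84 ± 0.066, adjusted p = 7.84e-09), while MPPE1 was lower at -0.74 and PIGM higher at 0.66. These counts moved with the scaling: with library sizes alone the GPI list had 6 higher and 10 lower with the plasmid, and 9 higher and 4 lower in the resistant libraries.

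Of 20 cytokine receptors, kinases and transcription factors that induce complement genes, all were tested. With the plasmid 9 were called higher and 7 lower, beside 36.5% higher and 35.7% lower over all genes, with a median of 0.03, and the counts became 8 higher and 10 lower with library sizes alone or with upper-quartile factors. STAT2, a factor of interferon signalling, rose from 262 to 646 CPM (log2 fold change 1.30 ± 0.023, adjusted p = 1.48e-17), the kinase JAK2 from 27.3 to 64.4 CPM (1.24 ± 0.051, adjusted p = 8.70e-13) and the oncostatin M receptor OSMR from 164 to 325 CPM (0.98 ± 0.025, adjusted p = 1.85e-15). IL1R1, the interleukin-1 receptor, fell from 22.1 to 10.0 CPM (-1.13 ± 0.065, adjusted p = 8.93e-11). In the resistant libraries 1 was called higher and 16 lower, beside 26.8% higher and 27.7% lower over all genes, with a median of -0.51 against 0.0181 over all genes. The same counts came with each of the 4 scalings. Of the 20 tested, 7 were shown to be lower by over 1.5-fold, beside 1065 of the 16875 genes tested in all. JAK2 fell from 78.9 to 27.2 CPM (-1.54 ± 0.057, adjusted p = 3.81e-13), IFNGR2, a chain of the interferon gamma receptor, from 45.0 to 17.3 CPM (-1.39 ± 0.13, adjusted p = 8.58e-08), and OSMR from 225 to 112 CPM (-1.01 ± 0.055, adjusted p = 7.81e-11). NFKBIZ, a cofactor of NF-kB, fell from 263 to 125 CPM (-1.07 ± 0.047, adjusted p = 3.89e-12).

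Of 16 acute-phase genes, which respond to inflammatory cytokines as several complement genes do, 7 were tested in each experiment. With the plasmid 5 were called higher and 1 lower, beside 36.5% higher and 35.7% lower over all genes, with a median of 0.89 against 0.0017 over all genes. The serum amyloid genes SAA1 and SAA2 rose from 61.1 to 116 CPM (log2 fold change 0.93 ± 0.034, adjusted p = 2.48e-13) and from 20.5 to 44.1 CPM (1.10 ± 0.046, adjusted p = 1.21e-12), LCN2, lipocalin, from 554 to 1028 CPM (0.89 ± 0.027, adjusted p = 1.99e-14), and SERPINA1 from 0.238 to 1.26 CPM (2.39 ± 0.25, adjusted p = 2.36e-07). SERPINA1 had only 21 counts over the vector libraries and 99 over the plasmid libraries, whose counts let it pass the filter. The gene called lower, SERPINA3, had the largest change of the list, with 82 counts over the vector and 3 over the plasmid libraries, a ratio of 0.0414 with a 95% interval of 0.00837 to 0.125 for counting error (adjusted p = 8.52e-08). It passed the filter through the vector group. In the resistant libraries 6 were called lower and none higher, beside 27.7% lower over all genes, with a median of -0.77 against 0.0181 over all genes (with library sizes alone 4 lower and 1 higher, with upper-quartile factors 5 lower and 1 higher). SAA1 fell from 180 to 28.6 CPM (-2.65 ± 0.067, adjusted p = 4.00e-15), SAA2 from 65.1 to 10.9 CPM (-2.58 ± 0.072, adjusted p = 1.18e-14), LCN2 from 1292 to 467 CPM (-1.47 ± 0.046, adjusted p = 5.07e-14) and CP, ceruloplasmin, from 673 to 394 CPM (-0.77 ± 0.045, adjusted p = 1.69e-10). SAA1 and SAA2 are near-identical neighbours whose reads can be split or lost between them, so their separate levels are uncertain.

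**Figure D5:**
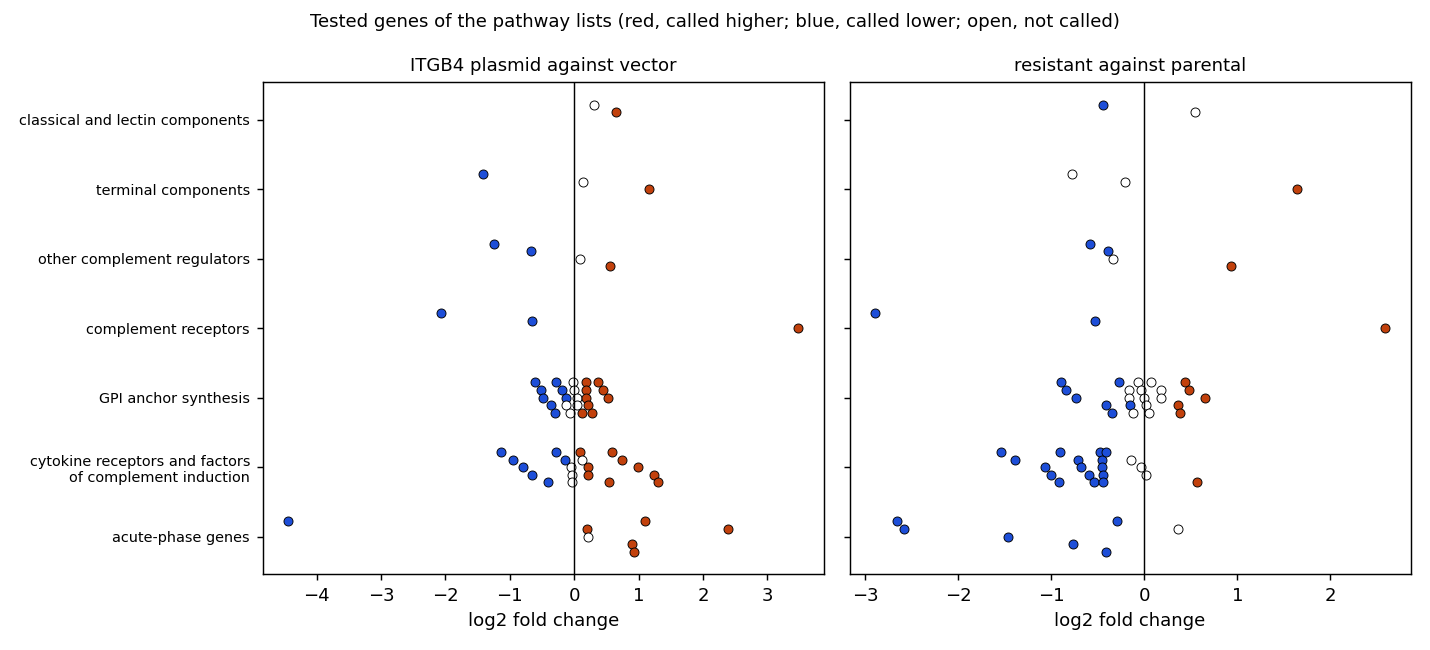
Log2 fold change of every tested gene of the pathway lists, plasmid against vector on the left and resistant against parental on the right; red, called higher; blue, called lower; open, not called. The 20 cytokine receptors and factors spread to both sides on the left and lie mostly below 0 on the right, where 16 were called lower.

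For C3, C1S and CD55, genes with the most similar profile were sought by the root mean square (RMS) difference of log2 CPM, centred on the controls of each experiment, over 12 libraries and 12875 genes. Nearest to C3 were WWC1, CTSL and TRAF3IP2, with RMS differences of 0.0282, 0.0304 and 0.0355. Their log2 fold changes were 0.39, 0.44 and 0.39 with the plasmid and -0.68, -0.64 and -0.64 in the resistant libraries. Nearest to C1S were KNSTRN (0.0506), STS (0.0531) and JAK2 (0.0743), and JAK2 is also in the list of cytokine receptors and factors above. Nearest to CD55 were PPP2R5C (0.0544), NNT (0.0579) and CCNY (0.0586), which had log2 fold changes of -0.70, -0.66 and -0.77 with the plasmid and 0.36, 0.34 and 0.33 in the resistant libraries. These genes were selected for their likeness, so it carries no test.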

How the data were processed

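RNA of RT4 cells was sequenced with a directional library kit, per the labels' protocols. The authors deposited 2 tables of raw counts per gene, 1 for each experiment. Per the file headers, the overexpression table was made with featureCounts 2.0.1, counting read pairs over exons of the Ensembl 107 annotation with no strand option and no option for reads that overlap several genes. For the resistance table, the counter, aligner and annotation were not given in the sources used here. Per the submitters' processing notes, hg38 was the build of both tables. Symbols were matched for 61757 of 61860 and 62700 of 62700 identifiers, and exon lengths, overlaps and positions are those of GENCODE 29 (GRCh38), counted from 1.

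Genes passing filterByExpr were tested per experiment in edgeR 4.0.16 (R 4.3.3), and changes over 1.5-fold with glmTreat. DESeq2 1.42.0, limma-voom 3.58.1, other scalings, filters and left-out libraries were tried as alternatives. The scripts were tested on simulated data. Replicate pairs differed by 1.54 to 12.3 times sampling noise (chi-square per degree of freedom), so none was counted as 1 library. The common biological coefficient of variation was 2.65% and 6.97%.

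The 9 members, the lists and the tests were chosen with earlier results of these data known. The genes named besides them are, per list and comparison, up to 4 called genes with the largest absolute log2 fold change and a mean of at least 1 CPM in a group, or with none called the most abundant ones, and the 3 nearest profiles of C3, C1S and CD55. MASP2, C8G, C9, ITGAX, ITGB2, C3AR1, SERPINA3, C1QA, C1QB, C1QC, MBL2, C2, C4A and C4B were named after their values were seen. A gene that the rule takes is not reported here.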

Additional observations from a re-analysis of the deposited data

Results flagged for a closer look

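The log2 fold change with the ITGB4 plasmid was set against that with cisplatin resistance for all 9 complement genes. By edgeR's test of the difference in 1 fit of 12 libraries all 9 were called, though CFB was too low to test for resistance. In that fit the plasmid change minus the resistance change was 1.05 for C3, 2.45 for C1R and 2.61 for C1S, the components that rose in 1 experiment and fell in the other. It was 3.90 for SERPING1 (adjusted p = 4.53e-11) and 4.03 for CFB (adjusted p = 0.000369). CFB had only 5 counts in the resistant and 11 in the parental libraries, and entered the fit through its counts in the plasmid group. The difference was -1.21 for CFI (adjusted p = 0.00480), which was called in the resistance experiment alone, -1.10 for CD55, -0.41 for CD46 and -0.33 for CD59. Every one of these 9 differences kept its sign and its call under the alternatives tried, of which there were 15 for CFB and 16 for each of the others. The 9 calls stand beside 61.8% called over all genes.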

How the results depend on the processing

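None of the 9 members changed direction under any alternative in an experiment where it was called. In the overexpression experiment 8 members were called under each alternative but a minimum mean of 1 CPM, which removed CFB and left 7, and the test for a change over 1.5-fold, which called 5, with 1 lower, and 1880 genes higher and 1938 lower over all genes. In the resistance experiment that test called 3 members, 0 of them higher, and 1042 genes higher and 1065 lower over all genes. Leaving out 1 library at a time, 1 to 2 members were called higher there. Library sizes alone moved the median log2 fold change of all genes by 0.16 in the resistance experiment and upper-quartile factors by 0.11. With library sizes alone 6548 genes were called higher and 3111 lower, so that 67.8% of calls were higher, against 49.1% with TMM factors, and 61.7% with upper-quartile factors.

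The replicate numbers of the overexpression titles showed no positive pairing: deviations of same-numbered libraries correlated at -0.16, -0.17 and -0.01 over 7653 genes. Vector library 1 with plasmid library 2 gave 0.15, and vector library 2 with plasmid library 1 gave 0.18. Other differently numbered pairs lay from -0.05 to 0.06. Deviations were centred within each group of 3, so these values are tied to one another, and a pairing under other numbers was not tested. With the replicate block 8 members were called, 5 higher and 3 lower, and 6105 genes higher and 5965 lower over all genes. No block could be fitted for the resistance experiment, because no label ties the parental columns to numbered samples. Depth limits CFB and, less so, CFI and SERPING1, whose group sums ran from 89 to 175 and from 44 to 638 counts.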
